A study of Homo sapiens with 12 samples.

Results

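The BCL2 family was examined as 10 genes, chosen by their symbols from the 60671 genes of the deposited table. These were 3 anti-apoptotic members (BCL2, BCL2L1 and MCL1), 2 effectors (BAX and BAK1) and 5 BH3-only members (BID, BAD, BCL2L11, PMAIP1 and BBC3). RNA was sequenced from 12 libraries labelled Jurkat, a line from a human T cell leukemia, in 4 groups of 3. Control cells with DMSO (NC+DMSO) and with vincristine (NC+VCR) carry the genotype label WT, and the study describes its controls as cells with the GFP vector. Cells with the PTPN21 construct, a lentiviral FLAG-tagged PTPN21 driven by the SFFV promoter, were given DMSO (PTPN21+DMSO) or vincristine (PTPN21+VCR). Treatment lasted 48 h in every group, and the sources used here do not state the VCR dose behind the RNA. The labels do not say whether the 3 libraries of a group came from separate cultures, so p-values measure the spread between these libraries, which may be technical.

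BCL2 family proteins decide whether the mitochondrial outer membrane is opened during apoptosis. BAX and BAK1 form the pores that release cytochrome c, BCL2, BCL-XL (the main product of BCL2L1) and MCL1 hold them in check, and BH3-only proteins either bind the protective members or activate the effectors directly. Vincristine blocks microtubule assembly and holds cells in mitosis, a state in which MCL1 protein is known to be unstable. RNA levels do not measure protein, cleavage or phosphorylation, through which BID, BAD and MCL1 are largely controlled.

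The labels were checked against the RNA. PTPN21 had an FPKM (fragments scaled to gene length and library total) of 0.0638 ± 0.0378 (SD, n = 3) in NC+DMSO and 8.82 ± 1.48 (SD, n = 3) in PTPN21+DMSO, and of 0.367 ± 0.205 and 5.74 ± 1.21 (SD, n = 3 each) in NC+VCR and PTPN21+VCR. The construct label therefore matched the RNA in all 12 libraries. The cell line label did not. Of 9 T cell markers, 7 had a mean FPKM under 1, and LCK, CD247 and CD28 were listed at 0 in every library. The others were CD3D, at 61.8 to 139.7, and TRBC1, at 0 to 4.15. Of 4 erythroid markers, 3 had a mean of at least 1 and HBB (adult globin) had a mean of 0.194. Every library held HBG1 (fetal globin) at 187.8 to 709 and HBA1 at 49.4 to 190.1. The libraries are therefore called here by their labels only, and the results below cannot be taken to describe T cells. The summed FPKM of the 4 erythroid markers ranged over 377.6 to 547 (NC+DMSO), 711 to 912 (PTPN21+DMSO), 253.8 to 294 (NC+VCR) and 263 to 375 (PTPN21+VCR). For the 9 T cell markers, almost all of it CD3D, the ranges in this order were 64.0 to 97.0, 119 to 145, 108 to 135 and 108 to 112. The 5 myeloid markers summed to 422 to 477, 297 to 359, 187 to 255 and 127 to 183, nearly all of it CD68, while CD14, CSF1R and MPO had means under 1, and no B cell marker of 5 reached a mean of 1. The parts of these lists in the changes of the members were not tested, and in bulk RNA fewer cells of a type and less RNA per cell cannot be told apart. The 13 mitochondrially encoded protein genes took 7.96% to 10.1% of all FPKM across both DMSO groups and 4.63% to 5.82% across both VCR groups. Depth relative to NC+DMSO replicate 1 was roughly estimated from the steps in low FPKM values. It was 0.883 to 1.09 in the 6 NC libraries and 1.26 to 1.46 in the 6 PTPN21 libraries. On this estimate, depth and construct cannot be told apart.

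The members differed widely in level. FPKM is scaled to gene length, so levels of different genes are set side by side here. The annotation behind those lengths is not given, so the order, sums, shares and ratios across genes are approximate. In NC+DMSO, BCL2L1 had the highest mean FPKM of the family, at 46.3, and its 3 libraries lay above all libraries of BAD, the next gene at 25.1. BAD, MCL1, PMAIP1, BBC3 and BID followed with means from 25.1 to 14.4, and each of these overlapped with the next. BAX (5.97), BAK1 (2.03), BCL2L11 (1.43) and BCL2 (0.341) were lower, each separated from its neighbour. In PTPN21+DMSO BAD came first, at 32.6, separated from BCL2L1 at 24.0, which overlapped with BID at 22.9. In NC+VCR the order opened with PMAIP1 (54.8), MCL1 (24.2) and BBC3 (19.8), each separated from the next, and BCL2L1 stood in the fifth place at 7.66, overlapping with BAD above it and BID below it. In PTPN21+VCR PMAIP1 was again the highest, at 61.6, and separated from MCL1 at 20.1.

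**Figure D1:**
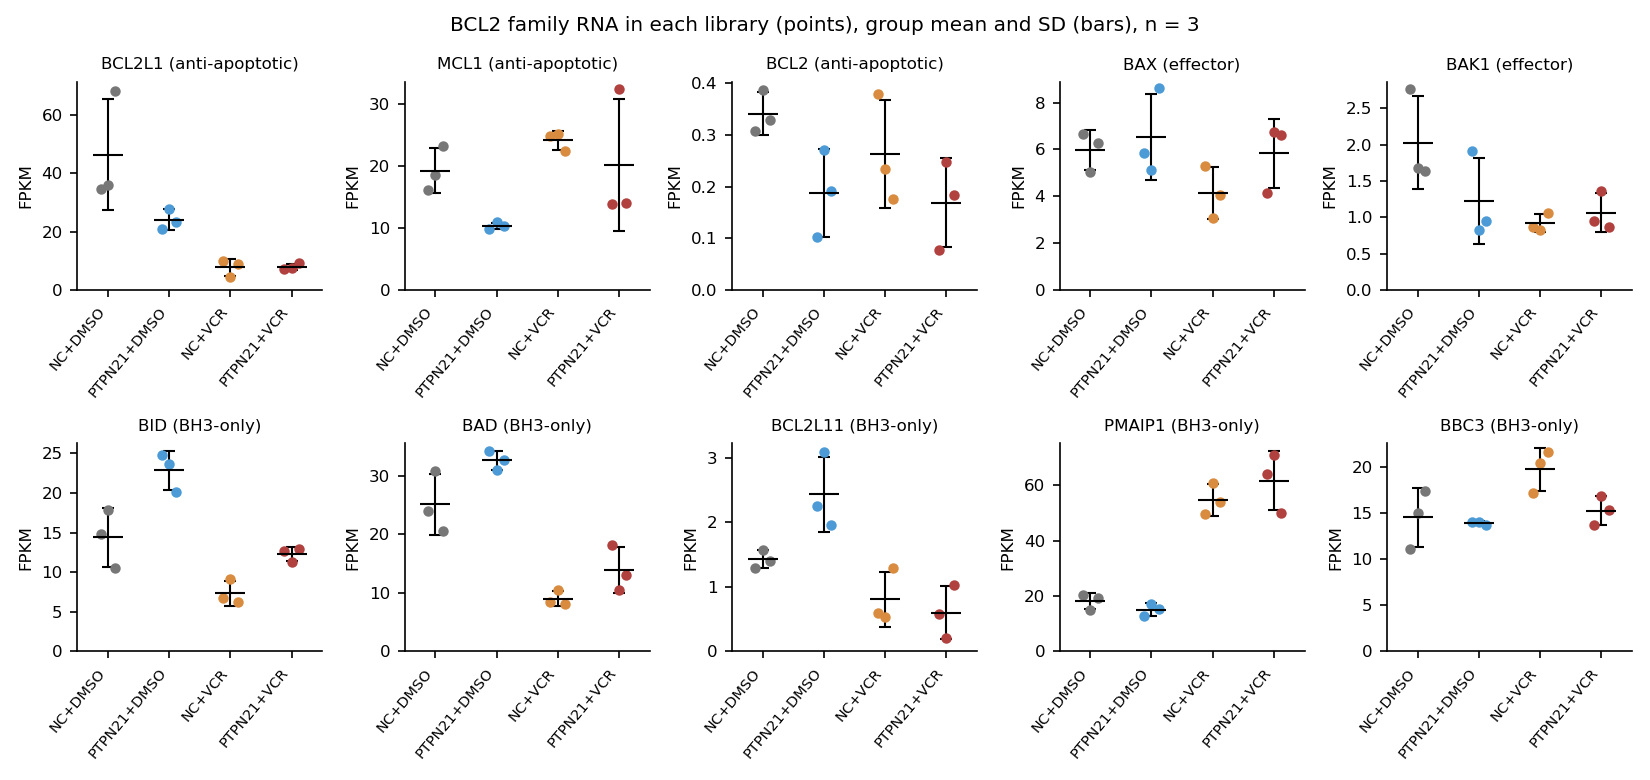
FPKM of each of the 10 members in every library (points, y axis from 0, a separate scale in each panel), with the mean and SD of each group (n = 3). BCL2L1 falls from a mean of 46.3 in NC+DMSO to 7.66 in NC+VCR, PMAIP1 rises from 18.2 to 54.8, and MCL1 in PTPN21+VCR has 1 library at 32.5 beside 2 near 14.

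The promoters shown are those of the member with the largest rise under VCR and of the member with the largest fall. Both are RefSeq promoter sequences on GRCh38.p14, limited to bases that lie before the gene as GENCODE release 29 draws it, and they overlap no annotated exon. The build and annotation behind the FPKM are uncertain, since the submitters' processing notes name the mouse build mm10 while the table holds human genes. Capitals mark the half-site of the cyclic AMP response element, TGACG or CGTCA on either strand, which factors of the CREB and ATF families can bind.
PMAIP1, chr18:59899746-59899947, plus strand: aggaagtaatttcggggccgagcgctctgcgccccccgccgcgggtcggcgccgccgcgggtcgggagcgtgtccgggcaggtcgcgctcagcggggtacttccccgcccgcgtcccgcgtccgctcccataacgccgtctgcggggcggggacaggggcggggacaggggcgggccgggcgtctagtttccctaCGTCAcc
BCL2L1, chr20:31723990-31724213, minus strand: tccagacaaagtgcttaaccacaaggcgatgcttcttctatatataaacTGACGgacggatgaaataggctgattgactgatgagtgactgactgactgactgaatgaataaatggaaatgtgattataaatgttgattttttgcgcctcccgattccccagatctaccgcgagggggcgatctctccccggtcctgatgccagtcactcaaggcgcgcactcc
The PMAIP1 stretch of 202 bases held 76.2% G and C and 4 GC boxes (GGGCGG or CCGCCC), and the BCL2L1 stretch of 224 bases held 47.8% G and C, no GC box and 2 matches to TATAAA or TTTATA. Each held 1 half-site. In the 250 bases before the start, the half-site occurred in 5 of the 9 members with a promoter entry and in 21.2% of all 35116 promoters, and a GC box in 5 of the 9 and in 42.6%. These matches describe letters in a window and show no binding. MCL1 had no promoter entry.

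The first question was how the family responded to VCR in control cells. BCL2L1, BAD and BID fell and PMAIP1 rose, and the other 5 tested members did not pass an adjusted p of 0.05. Values were analysed as log2(FPKM + 1) by limma, all 4 groups sharing one model, and p was adjusted by Benjamini-Hochberg over the 11591 genes whose mean FPKM was 1 or more. This scale understates changes of low genes. BCL2 did not reach that mean (0.240) and was read from a fit with no filter, so 9 of the 10 members were tested. Of the 9, 3 were lower and 1 was higher, 4 in all, where 36.2% of all genes tested passed (28.3% lower and 7.91% higher). The count of members was thus near the background. The median log2 fold change was -0.46 over the 9 members and -0.36 over all genes tested, and the members' values should be set against that shift. The split of calls depended on the scaling. As deposited 917 genes were higher and 3275 lower, while 55.8% of the calls were higher under median ratio scaling, 52.5% under quantile normalization and 16.3% under TPM scaling, and the members then split into 2 higher and 2 lower, 2 and 2, and 1 and 4.

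BCL2L1 (ENSG00000171552, GENCODE release 29 on GRCh38, chromosome 20 from 31664452 to 31723989) encodes BCL-XL, which holds BAX and BAK1 inactive. Its FPKM was 34.7, 36.0 and 68.3 in the 3 NC+DMSO libraries and 9.78, 4.32 and 8.89 in NC+VCR. Every NC+VCR library was below every NC+DMSO library, although NC+DMSO replicate 3 stood well above both others. On the log2 scale BCL2L1 fell by 2.45 with an SE of 0.296 (limma adjusted p = 0.000111), the largest change of any member in this comparison. MCL1 (ENSG00000143384, chromosome 1 from 150574551 to 150579738), the short-lived protective member, had 16.2, 18.5 and 23.2 FPKM in NC+DMSO and 24.9, 25.2 and 22.4 in NC+VCR. These groups overlapped, with a log2 fold change of 0.33 (95% interval -0.25 to 0.91, limma adjusted p = 0.356). For MCL1 it was 0.23 under TPM scaling (limma adjusted p = 0.543). Under median ratio scaling and quantile normalization it was 0.70 and 0.62 (limma adjusted p = 0.0627 and 0.0915). BCL2 (ENSG00000171791, chromosome 18 from 63123346 to 63320128), the founding member, stayed at or under 0.388 FPKM in all 12 libraries. A change in BCL2 RNA was not detectable at this level, with a log2 fold change of -0.090 in the fit with no filter (limma adjusted p = 0.552).

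The effectors had lower means under VCR without passing the test. BAX (ENSG00000087088, chromosome 19 from 48954815 to 48961798) had 6.64, 5.03 and 6.25 FPKM in NC+DMSO and 5.31, 3.06 and 4.04 in NC+VCR, and the groups overlapped. Its log2 fold change was -0.46 (95% interval -1.0 to 0.087, limma adjusted p = 0.171). For BAX it was -0.59 under TPM scaling (limma adjusted p = 0.106). Under median ratio scaling and quantile normalization it was -0.13 and -0.042 (limma adjusted p = 0.728 and 0.922). BAK1 (ENSG00000030110, chromosome 6 from 33572547 to 33580293) had 2.77, 1.68 and 1.63 FPKM in NC+DMSO and 0.871, 0.825 and 1.06 in NC+VCR, with no overlap. The log2 fold change of BAK1 was -0.64 (limma adjusted p = 0.0552). It passed without PTPN21+DMSO replicate 1, under TPM scaling and without the intensity trend (limma adjusted p = 0.0432, 0.0371 and 0.0364), and it was -0.41 and -0.22 under median ratio scaling and quantile normalization (limma adjusted p = 0.234 and 0.586).

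Among BH3-only members, PMAIP1 rose while BAD and BID fell. PMAIP1 (ENSG00000141682, chromosome 18 from 59899948 to 59904306) encodes NOXA, which binds MCL1. Its FPKM was 20.4, 14.9 and 19.2 in NC+DMSO and 49.5, 60.8 and 54.0 in NC+VCR. All 3 treated libraries lay above all 3 controls, a log2 fold change of 1.55 with an SE of 0.175 (limma adjusted p = 6.85e-05). BAD (ENSG00000002330, chromosome 11 from 64269830 to 64284704), a sensitizer kept inactive by phosphorylation, had 24.0, 30.8 and 20.6 FPKM in NC+DMSO and 8.44, 10.5 and 8.09 in NC+VCR. Without overlap between the groups, BAD fell by 1.37 on the log2 scale (SE 0.203, limma adjusted p = 0.000413). BID (ENSG00000015475, chromosome 22 from 17734138 to 17774770), which caspase-8 cleaves to carry death receptor signals to mitochondria, had 14.8, 17.9 and 10.5 FPKM in NC+DMSO and 6.69, 9.14 and 6.21 in NC+VCR. BID fell by 0.87 on the log2 scale (SE 0.201, limma adjusted p = 0.00604), but under median ratio scaling and quantile normalization its change was -0.51 and -0.50 and did not pass (limma adjusted p = 0.12 and 0.138).
BBC3 (ENSG00000105327, chromosome 19 from 47220822 to 47232766) encodes PUMA, which binds every protective member. It had 11.2, 15.1 and 17.4 FPKM in NC+DMSO and 17.2, 20.5 and 21.7 in NC+VCR, with an overlap of 1 library. Its log2 fold change was 0.43 (limma adjusted p = 0.0673) as deposited, 0.57 without NC+DMSO replicate 3 and 0.26 without NC+DMSO replicate 1 (limma adjusted p = 0.0331 and 0.247), 0.34 under TPM scaling (limma adjusted p = 0.166), and 0.80 and 0.75 under median ratio scaling and quantile normalization, which passed (limma adjusted p = 0.00448 and 0.0059). BCL2L11 (ENSG00000153094, chromosome 2 from 111119378 to 111168447) encodes BIM, an activator of BAX. It had 1.30, 1.58 and 1.40 FPKM in NC+DMSO and 0.597, 0.527 and 1.30 in NC+VCR. The log2 fold change of BCL2L11 was -0.45 (95% interval -1.0 to 0.10, limma adjusted p = 0.182), and its low level may rest on few fragments. It was -0.64 under TPM scaling (limma adjusted p = 0.129). Under median ratio scaling and quantile normalization it was -0.25 and -0.0019 (limma adjusted p = 0.506 and 0.996). The groups of BCL2L11 met at 1.30 FPKM without overlapping, and groups did not overlap for 6 of the 9 tested members and for 44.1% of all genes tested.

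**Figure D2:**
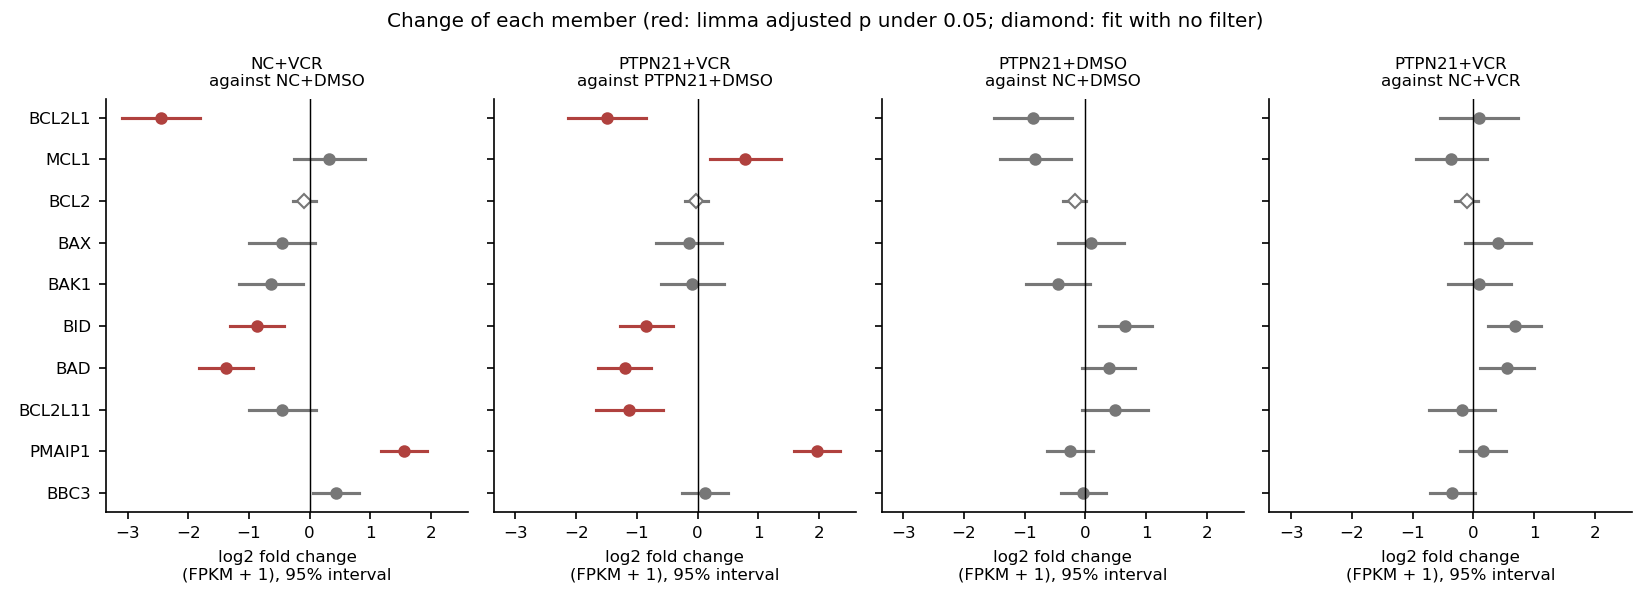
Log2 fold change of log2(FPKM + 1) with its 95% interval for each member in the 4 pairwise comparisons, with red for a limma adjusted p under 0.05 and an open diamond for BCL2, taken from the fit with no filter. BCL2L1, BID and BAD lie below 0 and PMAIP1 above 0 in both drug comparisons, and no member is red in the comparisons of PTPN21 with NC.

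The same question was asked in PTPN21 cells, whose 6 libraries are all different from those above. BCL2L1, BID, BAD and BCL2L11 fell and PMAIP1 and MCL1 rose, which made 6 of the 9 tested members, where 28.5% of all genes tested passed (19.3% lower and 9.22% higher). The median log2 fold change was -0.14 over the members and -0.17 over all genes. As deposited 1069 genes were higher and 2239 lower, and under median ratio scaling and quantile normalization 52.2% and 51.6% of the calls were higher, with 2 members higher and 3 lower in each. Under TPM scaling 30.0% of the calls were higher, with 1 member higher and 4 lower. BCL2L1 had 20.8, 27.9 and 23.3 FPKM in PTPN21+DMSO and 7.10, 7.34 and 9.06 in PTPN21+VCR, with no overlap, and fell by 1.5 on the log2 scale (SE 0.296, limma adjusted p = 0.00297). PMAIP1 had 12.6, 17.1 and 15.3 FPKM in PTPN21+DMSO and 64.0, 70.9 and 49.97 in PTPN21+VCR. The treated libraries of PMAIP1 were all higher, a log2 fold change of 1.96 with an SE of 0.175 (limma adjusted p = 1.25e-05), and this was the largest change of any member in PTPN21 cells.
BAD had 34.3, 31.0 and 32.6 FPKM in PTPN21+DMSO and 18.2, 10.5 and 13.1 in PTPN21+VCR, and fell by 1.20 (limma adjusted p = 0.00116). BID had 24.8, 23.7 and 20.1 FPKM in PTPN21+DMSO and 12.7, 11.3 and 12.9 in PTPN21+VCR, and fell by 0.84 (limma adjusted p = 0.00865). Under median ratio scaling and quantile normalization the change of BID was -0.66 and -0.64 and did not pass (limma adjusted p = 0.0518 and 0.0584). BCL2L11 had 2.26, 3.09 and 1.96 FPKM in PTPN21+DMSO and 0.575, 0.199 and 1.03 in PTPN21+VCR, and fell by 1.12 (SE 0.252, limma adjusted p = 0.00616). With a pseudocount of 0.1 in place of 1, the change of BCL2L11 was -2.03. Groups did not overlap for these 5 genes and MCL1, 6 of the 9 tested members, which was so for 50.4% of all genes tested in this comparison.

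MCL1 passed narrowly, and the size of its change depended on 1 library. It had 9.86, 10.9 and 10.3 FPKM in PTPN21+DMSO and 13.9, 32.5 and 13.996 in PTPN21+VCR, so PTPN21+VCR replicate 2 was more than 2-fold above its replicates. The log2 fold change of MCL1 was 0.79 with an SE of 0.266 (limma adjusted p = 0.0437), and without that library it was 0.40 (limma adjusted p = 0.131). The call was also lost without any 1 PTPN21+DMSO library, without NC+DMSO replicate 1 or 2 and without NC+VCR replicate 1 or 3 (limma adjusted p from 0.0507 to 0.108 over these). With no filter and under TPM scaling it did not pass either (limma adjusted p = 0.117 and 0.0590). Nor did it without the intensity trend or with only the 2 groups compared (limma adjusted p = 0.0542 and 0.0785). The call was kept in 10 of 22 alternatives. BAX, BAK1 and BBC3 changed on the log2 scale by -0.14, -0.085 and 0.12 in PTPN21 cells (limma adjusted p = 0.721, 0.826 and 0.639), and for BAX and BAK1 the direction changed with the scaling. BCL2 was at -0.023 in the fit with no filter (limma adjusted p = 0.975).

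**Figure D3:**
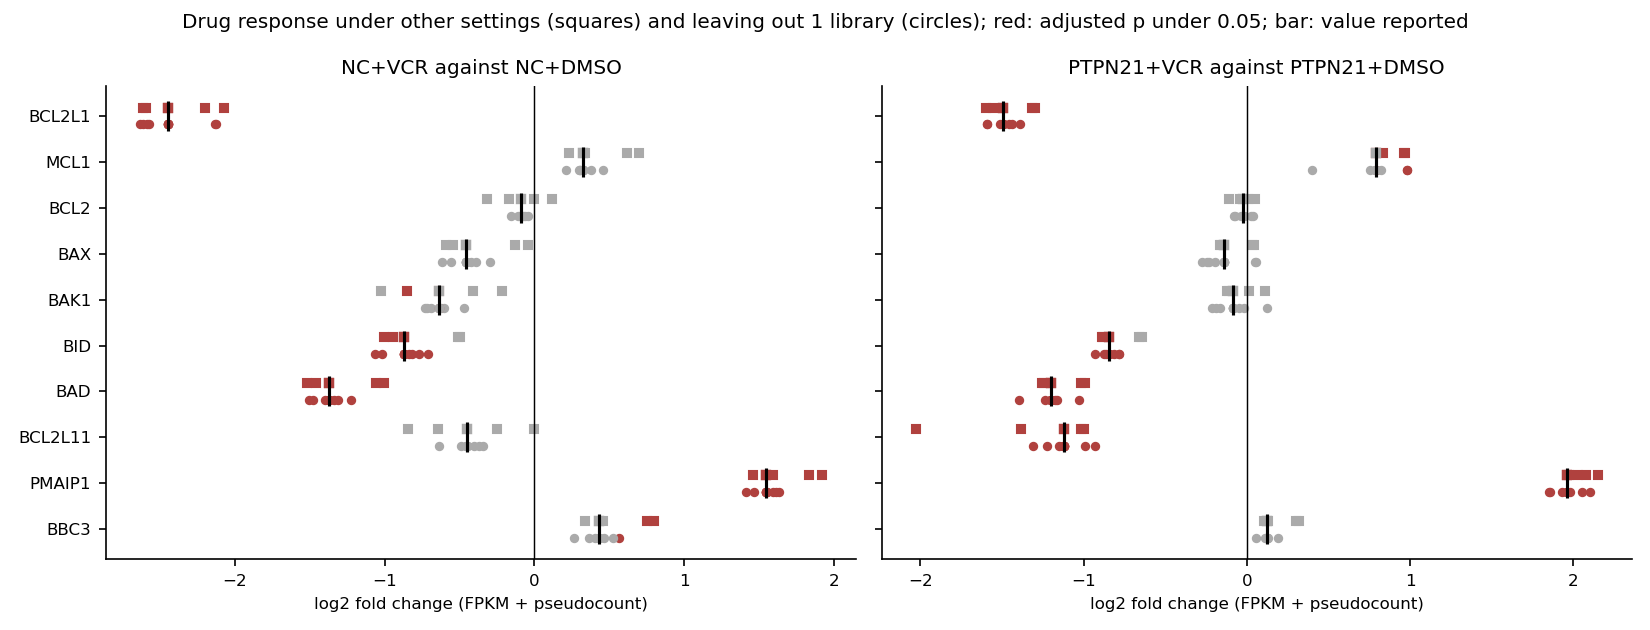
Log2 fold change of each member in the 2 drug comparisons under other settings (squares) and leaving out 1 library at a time (circles), with red for an adjusted p under 0.05 and a black bar for the value reported. BCL2L1, BAD and PMAIP1 stay on their side of 0 and red throughout, while MCL1 in PTPN21 cells drops to 0.40 without 1 library.

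Whether PTPN21 cells responded differently was tested as the interaction, the difference between the drug responses. None of the 9 tested members passed, where 0.129% of all genes tested did, 0.0259% upward and 0.104% downward (limma, Benjamini-Hochberg), and 1 member had an unadjusted p under 0.05, as did 1624 of the 11591 genes tested. That member was BCL2L1, whose fall was smaller in PTPN21 cells by 0.95 on the log2 scale (95% interval 0.038 to 1.86, limma adjusted p = 0.342). Without NC+DMSO replicate 3 or NC+VCR replicate 2 it was 0.64 or 0.63 (limma adjusted p = 0.522 and 0.427). The median over all genes of this difference was 0.17. For PMAIP1 the difference was 0.41 (95% interval -0.12 to 0.95, limma adjusted p = 0.46) and for BCL2L11 it was -0.67 (95% interval -1.45 to 0.10, limma adjusted p = 0.409). For BAD and BID it was 0.17 (95% interval -0.45 to 0.80) and 0.027 (95% interval -0.59 to 0.65), with a sign that changed with the scaling. These intervals are wide, so the responses were not shown to be alike.

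The change in BCL2L1 and PMAIP1 altered the makeup of the family RNA. BCL2L1 made up 65.6% to 74.4% of the summed FPKM of the 3 anti-apoptotic members in NC+DMSO and 67.7% to 71.4% in PTPN21+DMSO, against 14.5% to 28.2% in NC+VCR and 18.3% to 39.0% in PTPN21+VCR. MCL1 took most of the remainder, with 71.03% to 84.7% in NC+VCR and 60.2% to 81.1% in PTPN21+VCR. BCL2 never exceeded 1.08%. The summed FPKM of the 3 members was 51.2, 54.8 and 91.8 in NC+DMSO and 35.1, 29.8 and 31.5 in NC+VCR, with no overlap. In PTPN21+DMSO it was 30.8, 39.1 and 33.7, and in PTPN21+VCR it was 21.1, 40.1 and 23.2, where the groups overlapped through replicate 2.
PMAIP1 made up 18.5% to 28.5% of the summed FPKM of the 5 BH3-only members in NC+DMSO and 14.3% to 19.2% in PTPN21+DMSO. Its share was 59.1% to 60.1% in NC+VCR and 54.1% to 64.6% in PTPN21+VCR. BAD went the other way, from 29.8% to 38.4% in NC+DMSO to 8.87% to 10.3% in NC+VCR. The 5 together had 69.1 to 80.2 FPKM in NC+DMSO and 82.4 to 101.5 in NC+VCR, and 83.7 to 89.0 in PTPN21+DMSO and 92.4 to 109.8 in PTPN21+VCR, without overlap in either pair. The ratio of PMAIP1 to MCL1, which encode binding partners, was 0.966 ± 0.258 (SD, n = 3) in NC+DMSO and 2.27 ± 0.243 in NC+VCR, and 1.45 ± 0.149 and 3.45 ± 1.21 in the PTPN21 groups with DMSO and with VCR. These shares and ratios follow from the levels above and are given as descriptions, with no test. The sums were read as deposited and not under other scalings. Total FPKM per library was 520098 to 580878 in NC+DMSO and 589430 to 595061 in NC+VCR. In PTPN21+DMSO and PTPN21+VCR it was 593909 to 628041 and 608949 to 629364.

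**Figure D4:**
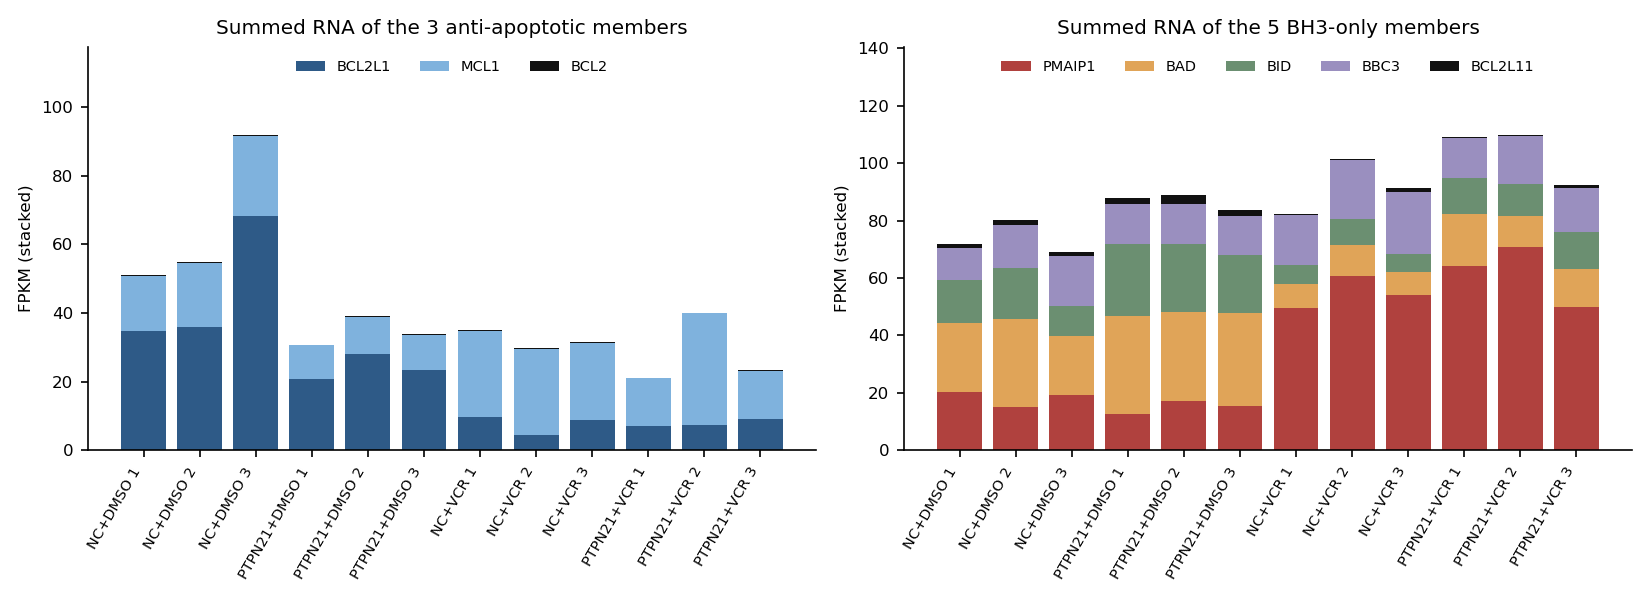
Stacked FPKM of the 3 anti-apoptotic members (left) and the 5 BH3-only members (right), 1 bar for each of the 12 libraries. BCL2L1 is the larger part of the left bars with DMSO and MCL1 with VCR, and PMAIP1 takes 54.1% to 64.6% of the right bars with VCR.

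The study's own question was the effect of PTPN21 overexpression. Under VCR, no member passed between PTPN21+VCR and NC+VCR (limma, 0 of 9, where 1.82% of all genes tested passed, 1.00% higher and 0.820% lower), and 2 members had an unadjusted p under 0.05, as did 17.1% of all genes tested. These were BID and BAD, both higher with PTPN21. BID had 6.69, 9.14 and 6.21 FPKM in NC+VCR and 12.7, 11.3 and 12.9 in PTPN21+VCR, without overlap, a log2 fold change of 0.68 (95% interval 0.25 to 1.12, limma adjusted p = 0.104). BAD had 8.44, 10.5 and 8.09 FPKM in NC+VCR and 18.2, 10.5 and 13.1 in PTPN21+VCR. The lowest PTPN21+VCR library of BAD (10.54) lay just above the highest NC+VCR library (10.49), and the log2 fold change was 0.56 (95% interval 0.11 to 1.00, limma adjusted p = 0.179). Both encode pro-apoptotic proteins, but so do BBC3 and BCL2L11, which were at -0.35 and -0.18, and none of these passed.
BAX, the effector, had 5.31, 3.06 and 4.04 FPKM in NC+VCR and 4.12, 6.74 and 6.62 in PTPN21+VCR, overlapping groups with a log2 fold change of 0.41 (95% interval -0.13 to 0.95, limma adjusted p = 0.441). BCL2 had 0.379, 0.233 and 0.176 FPKM in NC+VCR and 0.0772, 0.247 and 0.183 in PTPN21+VCR, and its log2 fold change in the fit with no filter was -0.11 (95% interval -0.30 to 0.080, limma adjusted p = 0.716). BBC3 was lower in every PTPN21+VCR library than in every NC+VCR library, with a change of -0.35 on the log2 scale (limma adjusted p = 0.328). Groups without overlap were thus found for 3 of the 9 tested members and for 22.5% of all genes tested. BCL2L1, MCL1, BAK1, BCL2L11 and PMAIP1 changed on the log2 scale by 0.088, -0.36, 0.098, -0.18 and 0.16 (limma adjusted p from 0.532 to 0.918), and the sign for BCL2L1, BAK1 and BCL2L11 turned on single libraries. MCL1 was at -0.75 without PTPN21+VCR replicate 2 (limma adjusted p = 0.101) and at -0.17 without replicate 1 or 3 of that group.

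Without drug, no member passed between PTPN21+DMSO and NC+DMSO (limma, 0 of 9, where 6.34% of all genes tested passed, 2.65% higher and 3.69% lower). The share of calls that were higher depended on the scaling. It was 73.6% under median ratio scaling, 54.5% under quantile normalization and 21.0% under TPM scaling. An unadjusted p under 0.05 was found for 3 members and for 25.6% of all genes tested. BCL2L1 had 34.7, 36.0 and 68.3 FPKM in NC+DMSO and 20.8, 27.9 and 23.3 in PTPN21+DMSO, without overlap, a log2 fold change of -0.86 (95% interval -1.5 to -0.22, limma adjusted p = 0.097). Without NC+DMSO replicate 3 it was -0.55 (limma adjusted p = 0.34). MCL1 had 16.2, 18.5 and 23.2 FPKM in NC+DMSO and 9.86, 10.9 and 10.3 in PTPN21+DMSO, also without overlap, at -0.82 (95% interval -1.40 to -0.24, limma adjusted p = 0.0827). BID had 14.8, 17.9 and 10.5 FPKM in NC+DMSO and 24.8, 23.7 and 20.1 in PTPN21+DMSO, at 0.66 (95% interval 0.22 to 1.10, limma adjusted p = 0.0701). MCL1 passed without PTPN21+VCR replicate 2 (limma adjusted p = 0.0237), which left its log2 fold change at -0.82, and BID passed without NC+DMSO replicate 2 (log2 fold change 0.82, limma adjusted p = 0.0311).
BCL2 had 0.307, 0.388 and 0.328 FPKM in NC+DMSO and 0.102, 0.272 and 0.191 in PTPN21+DMSO, low values without overlap, at -0.18 in the fit with no filter (95% interval -0.37 to 0.013, limma adjusted p = 0.398).
BAD and BCL2L11 were higher in every PTPN21+DMSO library than in every NC+DMSO library, at 0.38 and 0.49 (limma adjusted p = 0.261 and 0.247). Groups without overlap were found for 5 of the 9 tested members and for 33.4% of all genes tested. PMAIP1, BAX, BAK1 and BBC3 overlapped between the groups, with changes on the log2 scale of -0.26, 0.090, -0.46 and -0.037 (limma adjusted p from 0.258 to 0.918), and the sign for BAX and BBC3 changed with the scaling. The DMSO and VCR comparisons of PTPN21 with NC share no library, but each shares its groups with the drug comparisons. With 3 libraries against 3, an exact two-sided permutation test cannot go below p = 0.1, which was the p of every member without overlap.

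Other genes of the pathway were read from lists, with values as deposited only. Their calls were not read under other scalings or with a library left out, so how far they depend on these is not known. Of 13 further BCL2 family genes, 6 were tested, since BCL2L10 and BCL2L14 were listed at 0 in every library and BCL2A1, BCL2L15, BOK, BMF and HRK were under the mean FPKM of 1. The median log2 fold change of the 6 under VCR was -0.40 in NC cells and -0.50 in PTPN21 cells, beside -0.36 and -0.17 over all genes tested. In NC cells 3 of the 6 fell under VCR and 0 rose, where 28.3% of all genes tested fell and 7.91% rose. They included BNIP3, a mitophagy receptor with a BH3-like motif, at -0.74 (limma adjusted p = 0.0028), and its paralog BNIP3L at -0.46 (limma adjusted p = 0.0313), with BCL2L13 at -0.50 (limma adjusted p = 0.0413). In PTPN21 cells 2 of the 6 fell, where 19.3% of all genes tested did, BNIP3 at -0.88 (limma adjusted p = 0.00113) and BIK, a BH3-only gene, at -1.64 (limma adjusted p = 0.00524). BIK was at 3.21, 2.76 and 1.66 FPKM in PTPN21+DMSO and 0.154, 0.154 and 0.0458 in PTPN21+VCR. None of the 6 passed in the comparisons of PTPN21 with NC or in the interaction.
Of 13 genes for mitochondrial partners and steps after pore formation, 6 fell and 0 rose under VCR in NC cells, and 5 fell and 0 rose in PTPN21 cells, where 28.3% and 19.3% of all genes tested fell. The medians were -0.46 and -0.25, beside -0.36 and -0.17 over all genes tested. MTCH2, a receptor for BID on the outer membrane, had 29.4, 37.2 and 38.6 FPKM in NC+DMSO and 6.47, 6.71 and 16.6 in NC+VCR, a change of -1.84 on the log2 scale (limma adjusted p = 0.000375). VDAC3 and VDAC1, outer membrane channels, changed by -0.71 and -0.67 (limma adjusted p = 0.00172 and 0.00661). In PTPN21 cells, CYCS (cytochrome c), HTRA2 (a protease released with it) and ENDOG (a mitochondrial nuclease) changed by -0.78, -1.12 and -1.15 (limma adjusted p = 0.000544, 0.000555 and 0.00288). The comparisons of PTPN21 with NC and the interaction gave 0 of 13.
Of 16 regulators of BCL2 family genes and proteins, 15 were tested. Their median log2 fold change under VCR was -0.41 in NC cells and 0.13 in PTPN21 cells, beside -0.36 and -0.17 over all genes tested. In NC cells 1 rose and 4 fell under VCR, beside 7.91% and 28.3% of all genes tested. CDC20, which activates the ubiquitin ligase that acts on MCL1 in mitosis, had 22.5, 22.6 and 23.6 FPKM in NC+DMSO and 48.0, 36.7 and 47.6 in NC+VCR (log2 fold change 0.91, limma adjusted p = 0.00028). FBXW7, a ubiquitin ligase subunit that marks MCL1, had 17.4, 14.2 and 23.1 FPKM in NC+DMSO and 3.55, 4.37 and 5.25 in NC+VCR (-1.82, limma adjusted p = 8.29e-05). In PTPN21 cells 2 rose and 1 fell, beside 9.22% and 19.3% of all genes tested. Those that rose were CDC20 at 1.03 and YWHAZ, a protein that binds phosphorylated BAD, at 0.80 (limma adjusted p = 0.000141 and 0.0136). Between PTPN21+DMSO and NC+DMSO 3 of the 15 were lower and 0 higher, beside 3.69% and 2.65% of all genes tested. They were FBXW7 at -1.21, FOXO3, an activator of BCL2L11 and BBC3, at -1.19 and YWHAZ at -0.82 (limma adjusted p = 0.0124, 0.0267 and 0.0417). FBXW7 was the 1 regulator past the threshold in the interaction (0.0259% of all genes tested were higher), at 2.07 (limma adjusted p = 0.0218), and none passed between PTPN21+VCR and NC+VCR.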

How the data were processed

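The authors deposited 1 table of FPKM values per gene, made from RNA-seq of 12 libraries by an external company. The submitters' processing notes name fastp, Bowtie2 and mm10, the mouse build, although the table lists human Ensembl genes, and the counting program, annotation and filters are not given in the sources used here. Columns were matched to libraries by title (0 unmatched), and groups came from the labels. No pair of libraries held identical values.
From these FPKM, log2(FPKM + 1) was fitted with limma 3.58.1 in R 4.3.3, with an intensity trend and without a block, for the 11591 genes whose mean FPKM was 1 or more. There were 5 comparisons, with Benjamini-Hochberg adjustment and a threshold of 0.05. The fit was also run on simulated data, with independent normal noise and changes in NC+VCR only. That simulation held no difference in scaling, so it cannot show how the calls depend on scaling. Correlation between replicates across these genes was 0.939 to 0.976. Replicate numbers did not pair the libraries (18 pairs, correlation of deviations -0.145 to 0.0583).
The named genes are all 10 members and, of 3 further lists, the 3 lowest adjusted p past the threshold in each comparison, except that values of some genes in the lists are not reported here. Members and lists were chosen with earlier results of these data known. Alternatives covered the pseudocount (0.1), the filter (none, or a mean of 5), scaling, limma's trend and moderation, a replicate block, fits of 2 groups and leaving out each library. Depth is not recorded, and relative depth is the modal ratio of FPKM values under 0.3, sought only within a limited range of ratios. It is a weak peak held by 10 to 31 of the genes compared. Positions are from GENCODE release 29, with all 10 members matched by Ensembl identifier. Python 3.11.15 (pandas 2.3.3, scipy 1.17.1, matplotlib 3.10.9) was used for levels and figures.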

Additional observations from a re-analysis of the deposited data

How the results depend on the processing

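The number of members past the threshold was 4 in NC cells and 6 in PTPN21 cells under VCR, and stayed within 1.5 times these counts in every alternative run. Between the DMSO groups (0) the count was 1 with a mean FPKM of at least 5 (BID), 1 under TPM scaling (MCL1), and 0 to 1 leaving out one library. It was 0 in every alternative for PTPN21+VCR against NC+VCR and for the interaction. The median over all genes in NC+VCR against NC+DMSO was -0.36 as deposited, -0.49 under TPM scaling, -0.039 with median ratios and -0.021 with quantile normalization. With the replicate block the counts were 4, 6, 0, 0 and 0, and no call of a member changed.
Of 470 values of single members under the settings, 8 lost and 6 gained the threshold and 16 changed sign. Of 600 leaving out one library these were 8, 4 and 20. No sign change involved a value past the threshold. Under median ratio scaling the values that changed sign were BCL2 in NC cells under VCR (0.00029), BCL2, BAX and BAK1 in PTPN21 cells under VCR (0.0071, 0.028 and 0.010), BBC3 between the DMSO groups (0.14), and BID and BAD in the interaction (-0.15 and -0.011). Under quantile normalization they were BCL2 in NC cells (0.12), BCL2, BAX and BAK1 in PTPN21 cells (0.046, 0.046 and 0.11), BBC3 between the DMSO groups (0.13), BAK1 between the VCR groups (-0.030), and BCL2 and BID in the interaction (-0.073 and -0.14). Under TPM scaling BAX between the DMSO groups was -0.041. Leaving out one library, the ranges that crossed 0 in PTPN21 cells under VCR were -0.077 to 0.034 for BCL2, -0.27 to 0.057 for BAX and -0.21 to 0.12 for BAK1. Between the DMSO groups they were -0.10 to 0.23 for BAX and -0.20 to 0.096 for BBC3. Between the VCR groups they were -0.23 to 0.28 for BCL2L1, -0.0054 to 0.16 for BAK1 and -0.37 to 0.0081 for BCL2L11, and in the interaction -0.14 to 0.22 for BID and -0.023 to 0.34 for BAD. BAK1 and BCL2L11 have no value with a mean FPKM of at least 5. The cause of these moves was not tested. Levels near 1 FPKM and below may rest on few fragments, but fragment counts are not available.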

Other observations

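GATA1 and KLF1, transcription factors of red cell development chosen here after their values were seen, were at 57.4 to 76.9 and 23.4 to 26.9 FPKM in NC+DMSO and at 13.5 to 25.3 and 1.39 to 2.80 in NC+VCR. In PTPN21+DMSO they were at 85.0 to 106.5 and 32.0 to 39.7, and in PTPN21+VCR at 19.8 to 23.5 and 3.55 to 3.72. Under DMSO every PTPN21 library was above every NC library for both genes, and under VCR for KLF1 only. HBG2, a fetal globin gene that shares near-identical sequence with HBG1, was at 780 to 1308 FPKM in NC+DMSO and 1966 to 2985 in PTPN21+DMSO, and at 560 to 637 in NC+VCR and 724 to 853 in PTPN21+VCR.
The following genes of the lists were picked after their values were seen. ATF4, one of the 16 regulators, was at 26.3 FPKM in NC+DMSO replicate 1 and at 302 and 245.7 in the other two, and at 29.8, 32.7 and 329.6 in PTPN21+DMSO, with 312 to 336 in NC+VCR and 26.0 to 29.1 in PTPN21+VCR, so DMSO replicates of a group fell on different levels. BCL2L2 was at 6.87, 8.75 and 1.45 in NC+DMSO and 1.15, 6.99 and 6.11 in NC+VCR.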
